A study of Mus musculus with 6 samples.

Results

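The loci described here are those of 8 mouse genes used as markers of reserve and regenerative stem cells of the intestine: Clu, Ly6a, Anxa1, Bmi1, Hopx, Tert, Mex3a and Yap1. They were taken as 8 of the 21938 protein-coding genes annotated on GRCm38, by name and not by any measured value. A peak belonged to a gene when its summit lay in the gene body or within 20 kb on either side. By this rule the loci held 28 to 37 peaks per sample, out of lists of 40492 to 58297 peaks, and 45 of the 71286 regions obtained when the 6 lists were merged.

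Chromatin accessibility was measured with the ATAC-seq assay, in which the Tn5 transposase cuts and tags open DNA. The 6 samples were intestinal crypts, 3 from wild-type (WT) and 3 from Arid3a conditional knockout (cKO) mice. The cKO mice carried Arid3a fl/fl with Villin-CreERT2, a tamoxifen-inducible recombinase driven by a promoter active in the intestinal epithelium, so that cells outside the epithelium were not targeted. Both genotypes were given tamoxifen daily for 3 days, crypts were taken 1 month after injections began, and none of the mice was irradiated, so the samples describe crypts not exposed to radiation. Arid3a encodes a DNA-binding protein of the ARID family. The ages of the animals were not given in the sources used here, and nothing in the labels says that equal replicate numbers mark a litter or a day.

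Crypts are renewed by dividing stem cells at their base, marked by Lgr5. After radiation or other injury, when these cells are lost, epithelial cells can return to a state that resembles the fetal intestine and rebuild the crypt. Clu, Ly6a (which encodes Sca-1) and Anxa1 are known markers of that regenerative state, and the transcriptional coactivator YAP, the product of Yap1, is known to drive it. Bmi1, Hopx, Tert and Mex3a were proposed as markers of slow-cycling or injury-resistant cells in the resting crypt, although several of them are also expressed more widely.

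Each list gave every peak a fold, the ratio of the fragment pileup at its summit to the local background. Since the fold is set within a library, peaks were compared by percentile. A list percentile is the share of the peaks of the same list with a lower fold. A shared percentile is the same share among the 32748 regions that had a peak in all 6 lists, and it served for the comparison of genotypes. Peak calls show where chromatin passed the threshold of the caller, and read numbers within peaks were not compared. Crypts were assayed in bulk, so fewer cells with an open locus and less signal per cell cannot be told apart.

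The fragment coverage implied by the lists was 1.82 to 2.11 per base in WT and 1.75 to 2.29 in cKO samples. The lists were less alike than this coverage. WT 1 had the shortest list, 40492 peaks, and the lowest median fold, 5.26, at a coverage of 2.11. The next shortest list was that of cKO 2, with 46415 peaks. The part of these list differences in the low values of WT 1 and cKO 2 below was not tested. Of 10 epithelial marker genes, 6 to 8 had a promoter peak in any one sample, of 8 leukocyte markers none had one in any sample, and of 5 endothelial markers Kdr had one in WT 1 and cKO 1. Of 7 mesenchymal markers 2 or 3 had one in each sample, among them Col1a1 and Pdgfra in all 6. Some of the marker genes may not be covered by the rows analysed here, so these counts are minimum values. The promoter region of the epithelial marker Epcam was lower in every cKO sample (limma adjusted p = 0.695). Its shared percentiles were 60.2, 52.4 and 56.6 in WT, against 34.3, 47.7 and 31.5 in cKO samples. Its summit fell in the promoter window in 5 lists. The other epithelial markers that could be compared had lower cKO means, but their genotypes overlapped. Over all coding promoter peaks in all lists, 7.99% were lower in cKO without overlap. The part of non-epithelial cells in the results below was not tested. Promoter peaks of coding genes ranked lower in cKO 1 and cKO 3 than elsewhere: their lower quartile lay at the list percentiles 68.5, 68.9 and 69.96 in WT 1, 2 and 3, against 64.3, 68.9 and 62.0 in cKO 1, 2 and 3. The part of this shift in the promoter values below was not tested.

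Most of the loci were open in unirradiated crypts. At 5 of the 8 genes, Clu, Bmi1, Hopx, Tert and Mex3a, a summit lay at an annotated start in all 6 lists (at most 1000 bp before or 100 bp after it), against 44.6% of all coding genes. For Hopx the count rests on 2 regions, since in WT 3 only the weaker one at the first start had its summit in the window. Yap1 had such a summit in 5 lists, and Ly6a and Anxa1 had one in none, as did 38.3% of coding genes. The 2 genes without a promoter peak, Ly6a and Anxa1, both belong to the regenerative group. Anxa1 was the one locus with no peak at all in any list, a state shared with 19.3% of coding loci.

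**Figure D1:**
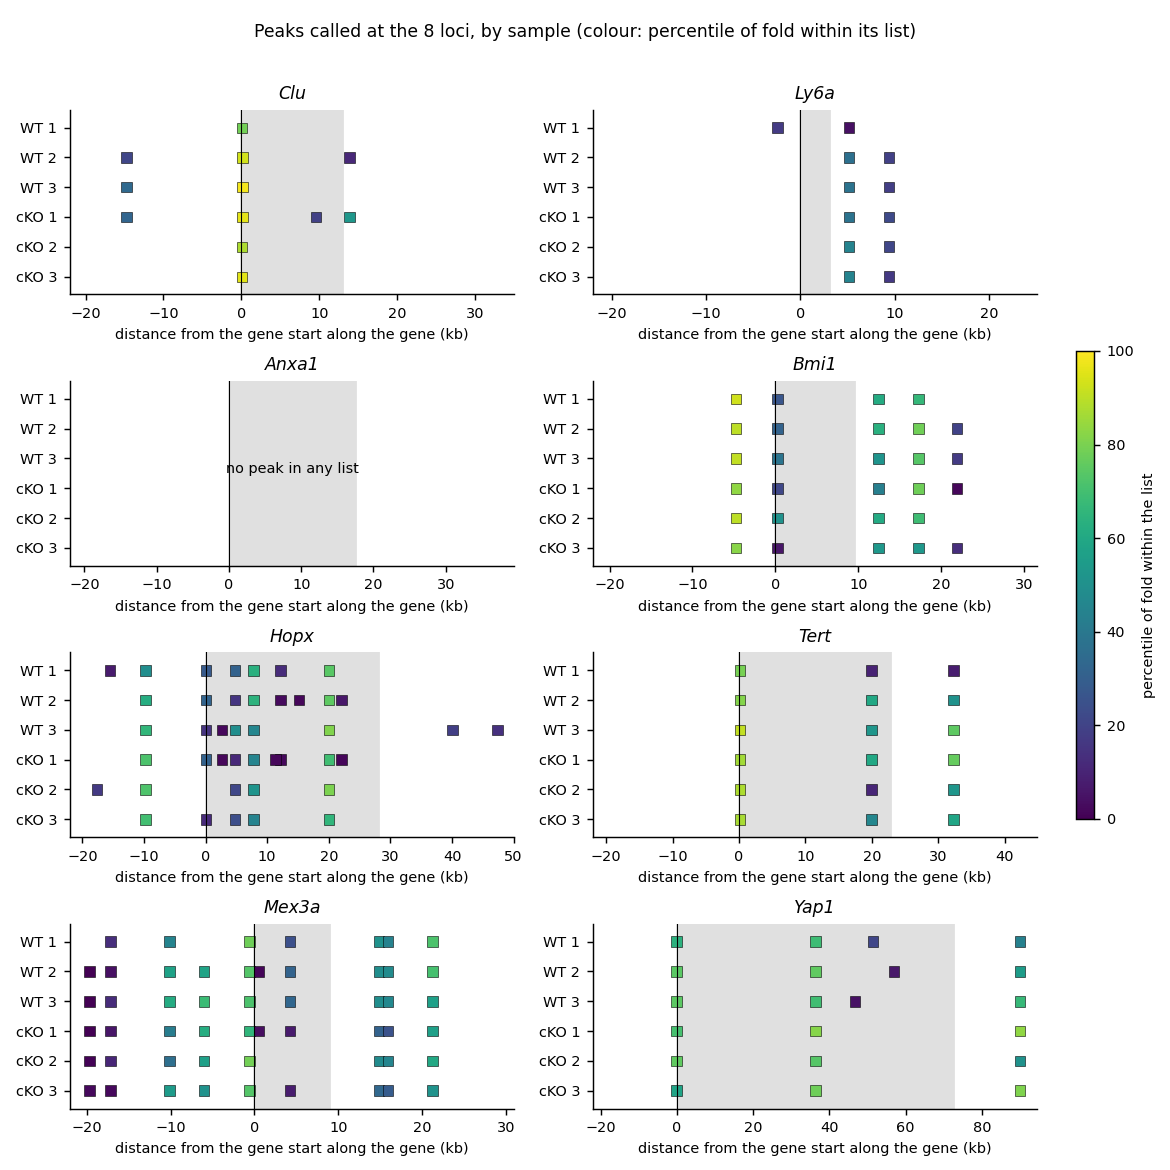
Peaks at the 8 loci in the 3 WT and 3 cKO samples. The x axis is the distance in kb of a region's summit from the gene start, along the gene, the grey band is the gene body, each square is a region called in that sample, and its colour is the percentile of fold within the list. Clu, Bmi1, Tert, Mex3a and Yap1 had a region at or near the start in all samples, strongest at Clu and Tert, Ly6a had peaks only away from it, and Anxa1 had none.

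Among the regenerative markers, Clu stood out. Clu encodes clusterin, a secreted chaperone, and lies at chr14:65968483-65981547 on the plus strand (ENSMUSG00000022037.15). Its promoter peak (Clu peak 2, chr14:65968112-65969124) had list percentiles of 78.8, 93.2 and 98.1 in WT 1, 2 and 3, against 96.0, 87.7 and 95.6 in cKO 1, 2 and 3. The median promoter peak of a coding gene lay at 81.9 to 85.6. Clu was therefore above that median in 5 of the 6 samples, and WT 1 was the exception. Its fold was 8.32, 14.6 and 16.9 in WT, against 13.9, 11.8 and 12.3 in cKO samples. The pileup at its summit was 46, 91 and 124 fragments in WT, against 132, 69 and 117 in cKO samples. WT 1 and cKO 2 were lowest, and the genotypes overlapped.

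The shared percentile of the Clu promoter averaged 86.7 ± 11.8 for WT and 89.5 ± 6.06 for cKO samples (SD, n = 3 each). The difference of 2.83 was smaller than the spread between replicates. The other 3 regions at Clu were called in 1 to 3 lists. Clu peak 1, in a UTR exon of the neighbouring gene Scara3 and 14.8 kb before the Clu start, was called in WT 2, WT 3 and cKO 1. Clu peak 3, in an intron, was called in cKO 1 and Clu peak 4, past the end of the gene, in WT 2 and cKO 1, at list percentiles of 11.2 and 52.9. No region at Clu other than its promoter was called in all 6 lists.

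Ly6a was open only away from its start. Ly6a encodes Sca-1, a GPI-anchored surface protein, and lies at chr15:74994877-74998031 on the minus strand (ENSMUSG00000075602.10), in a cluster of related genes that includes Ly6i within the same window. Each list had 2 peaks at the locus. The nearest summit was 5.17 to 5.71 kb from the gene start in 5 lists and 2.43 kb in WT 1, where a weak peak with a list percentile of 17.4 and a pileup of 13 fragments was called upstream. The one region called in all 6 lists, Ly6a peak 2 (chr15:74992061-74992972), lay between genes past the 3′ end of Ly6a.

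Ly6a peak 2 was one of 3 regions, of the 22 at the 8 loci called in all 6 lists, whose shared percentiles did not overlap between genotypes. Over all shared regions 11.9% did not overlap, so 3 of 22 is close to the share over all of them. The 100 bases on either side of its summit (chr15:74992758-74992958, GRCm38, plus strand) are shown with the site that reads as ARID3 and, with 1 more base, as TCF in capitals. The search covered both strands without mismatch, for ATCAAA or ATTAAA as ARID3 and CTTTGAT as TCF.

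Ly6a peak 2: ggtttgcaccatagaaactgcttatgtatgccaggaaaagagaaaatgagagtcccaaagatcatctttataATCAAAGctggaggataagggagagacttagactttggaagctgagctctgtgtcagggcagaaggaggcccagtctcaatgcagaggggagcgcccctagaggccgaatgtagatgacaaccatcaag

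The shared percentile of Ly6a peak 2 was 1.77, 15.5 and 14.4 in WT 1, 2 and 3, against 16.6, 26.3 and 25.8 in cKO 1, 2 and 3. Every cKO value lay above every WT value, but the highest WT and the lowest cKO sample were 15.5 and 16.6. The means were 10.6 ± 7.65 for WT and 22.9 ± 5.45 for cKO samples (SD, n = 3 each, difference 12.4, exact two-sided permutation p = 0.1, the smallest that 3 against 3 can give). It did not pass across all 32748 shared regions (limma adjusted p = 0.688). The pileup was 14, 24 and 31 fragments in WT, against 42, 27 and 32 in cKO samples, and overlapped. On the percentile over the whole list the values also overlapped, at 3.93, 36.6 and 38.1 in WT, against 38.1, 44.6 and 44.9 in cKO samples, and without WT 1 the difference was 7.94 and the region was not among those that separated. Ly6a peak 1, over the starts of noncoding genes 9.43 kb from the Ly6a start, was called in 5 lists, with list percentiles of 16.4 to 22.5, and was missed in WT 1.

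Anxa1 had no peak in any sample. The gene encodes annexin A1, a calcium-dependent phospholipid-binding protein, and lies at chr19:20373428-20390944 on the minus strand (ENSMUSG00000024659.15). The nearest summit to its start was 162, 156 and 156 kb away in WT 1, 2 and 3, against 139, 162 and 140 kb in cKO 1, 2 and 3. The nearest peaks were thus far beyond the 20 kb limit in both genotypes. A locus without a call is one that did not pass the threshold of the caller at this depth.

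The 200 bases before the annotated starts of Anxa1, Hopx and Yap1 are set side by side because these starts differed in their calls: Anxa1 had none in any list, and the regions at the first Hopx start and at the Yap1 start were called in 5 and 6 lists. They are shown in the direction of transcription on the minus strand of GRCm38, at chr19:20390945-20391144, chr5:77115122-77115321 and chr9:8004597-8004796. CpG dinucleotides are in capitals, and the stretches were chosen after the peak calls had been seen.

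Anxa1: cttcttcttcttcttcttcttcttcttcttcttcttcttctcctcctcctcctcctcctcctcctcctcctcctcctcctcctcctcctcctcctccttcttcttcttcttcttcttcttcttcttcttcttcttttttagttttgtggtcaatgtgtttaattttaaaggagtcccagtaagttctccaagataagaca

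Hopx: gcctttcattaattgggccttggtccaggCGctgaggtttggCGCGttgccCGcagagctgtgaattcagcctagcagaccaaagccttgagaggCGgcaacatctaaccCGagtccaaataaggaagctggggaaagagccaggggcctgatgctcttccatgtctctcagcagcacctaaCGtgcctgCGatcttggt

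Yap1: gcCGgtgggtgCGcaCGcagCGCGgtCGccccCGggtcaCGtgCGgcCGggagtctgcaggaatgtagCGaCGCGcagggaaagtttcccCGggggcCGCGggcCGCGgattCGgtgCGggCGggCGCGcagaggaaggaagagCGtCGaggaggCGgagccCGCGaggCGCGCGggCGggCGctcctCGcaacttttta

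These stretches held 0 CpG dinucleotides at Anxa1, 8 at Hopx and 34 at Yap1, with a GC content of 42.5%, 56.0% and 74.5%. The Anxa1 stretch is largely a repeat of pyrimidines. The RefSeq promoter table for GRCm38.p6, which gives 300 bases around a start, matched 6 of the 8 genes, all but Clu and Ly6a. In those windows Anxa1 had 3 CpG dinucleotides, Tert 15, Mex3a 20, Bmi1 23 and Yap1 49, and the 2 entries of Hopx had 8 and 21. The median over all 32851 promoters was 7 (quartiles 3 and 20). Anxa1 was the one member of the 6 whose every entry lay below the median. Its RefSeq window, chr19:20390622-20390921, did not overlap the stretch shown above, since the annotated starts differ. The part of CpG content in the calls was not tested.

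Yap1, the driver of the regenerative program, had a peak at or near its start, an intronic peak and a peak beyond its end. The gene lies at chr9:7931999-8004596 on the minus strand (ENSMUSG00000053110.13), and its protein binds TEAD transcription factors when the kinases of the Hippo pathway do not hold it in the cytoplasm. The promoter region (Yap1 peak 6, chr9:8003172-8005047) was called in all 6 lists, with list percentiles of 63.9, 74.5 and 74.9 in WT, against 70.5, 75.6 and 58.4 in cKO samples. In WT 1 its summit lay 1.03 kb from the start, inside the gene and well past the 100 bp that the promoter window allows there. The count of 5 lists above thus comes from the position of 1 summit and not from a missing region. Its shared percentile averaged 58.2 ± 2.58 for WT and 52.1 ± 12.98 for cKO samples (SD, n = 3 each), and the groups overlapped.

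The intronic region, Yap1 peak 5 (chr9:7967851-7968879), lay 36.3 kb into the gene and was the second of the 3 regions without overlap. Its shared percentile was 61.4, 62.3 and 49.3 in WT 1, 2 and 3, against 68.4, 62.7 and 66.1 in cKO 1, 2 and 3. All cKO samples were above all WT samples, with 62.3 in WT 2 next to 62.7 in cKO 2. The means were 57.7 ± 7.26 and 65.7 ± 2.84 (SD, n = 3 each, difference 8.03, exact permutation p = 0.1, limma adjusted p = 0.802). The pileup was 28, 42 and 38 fragments in WT, against 73, 35 and 46 in cKO samples, so that cKO 2 lay within the WT range. By the percentile over the whole list, the values overlapped, and without WT 3 the difference was 3.82.

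Yap1 peak 1 (chr9:7914039-7914920), 90.0 kb from the gene start and past its 3′ end, had the largest difference of means at any of the 8 loci. It is described here although it was chosen after its values were seen. Its shared percentile was 31.8, 33.7 and 45.9 in WT, against 71.1, 33.0 and 70.4 in cKO samples. cKO 1 and cKO 3 were far above all WT samples and cKO 2 was within their range, so the difference of 21.03 rested on 2 of the 3 cKO samples (37.1 ± 7.63 against 58.2 ± 21.8, SD, n = 3 each, limma adjusted p = 0.692). cKO 1 and cKO 3 were also the samples whose promoter peaks ranked lower.

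The sequences around both summits follow, as chr9:7968160-7968360 and chr9:7914469-7914669 on the plus strand. Capitals mark an HNF4 site, CAAAGTCCA, in Yap1 peak 5 and the pair of ARID3 sites, ATCAAA, in Yap1 peak 1.

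Yap1 peak 5: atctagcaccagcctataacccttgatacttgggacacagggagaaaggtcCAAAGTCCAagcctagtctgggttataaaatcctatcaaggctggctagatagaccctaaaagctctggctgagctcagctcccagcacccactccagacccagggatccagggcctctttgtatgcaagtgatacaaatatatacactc

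Yap1 peak 1: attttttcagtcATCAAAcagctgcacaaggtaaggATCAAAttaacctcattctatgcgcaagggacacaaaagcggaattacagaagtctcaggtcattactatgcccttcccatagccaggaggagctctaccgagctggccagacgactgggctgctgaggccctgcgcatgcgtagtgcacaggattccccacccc

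The number of peaks at Yap1 was 4 in each WT and 3 in each cKO sample (exact permutation p = 0.1). It was the one locus of the 8 at which the numbers did not overlap. Numbers were lower in all cKO samples at 0.36% of coding loci and higher at 0.857%. The extra WT peak was a different one in each sample: Yap1 peak 3 in WT 1, peak 2 in WT 2 and peak 4 in WT 3, with list percentiles of 20.99, 6.34 and 4.45 and pileups of 12, 9 and 8 fragments. With only the peaks of −log10 q of at least 5 kept, no locus had numbers without overlap. No single region at Yap1 was called in all WT samples and in no cKO sample.

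**Figure D2:**
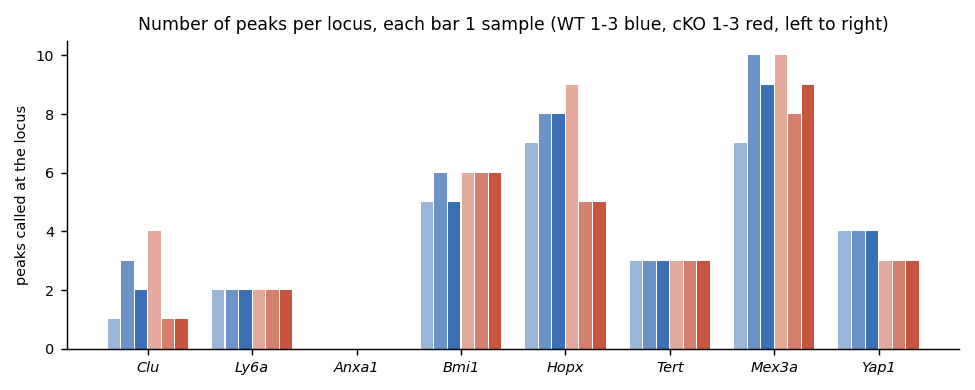
Number of peaks at each of the 8 loci, with 1 bar per sample, WT 1 to 3 in blue and cKO 1 to 3 in red from left to right. Tert had 3 and Ly6a 2 peaks in every sample, Yap1 had 4 in each WT and 3 in each cKO sample, Mex3a and Hopx had the highest means, and Anxa1 had none.

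Of the genes proposed as markers of reserve cells, Mex3a and Hopx had the most peaks by the mean over samples. Mex3a had 7, 10 and 9 peaks in WT 1, 2 and 3, against 10, 8 and 9 in cKO 1, 2 and 3, a mean over the samples above that of 94.8% of coding loci. Hopx had 7, 8 and 8 in WT, against 9, 5 and 5 in cKO samples, above 89.4%. The median coding locus had 2.83. Bmi1 had 5, 6 and 5 in WT and 6 in each cKO sample, and Tert had 3 in every sample. Calls were counted before merging, so that a merged region can hold more than 1 call of a list, as at Bmi1, which has 5 merged regions and up to 6 calls in a list.

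Hopx encodes a small homeodomain protein that does not itself bind DNA, and lies at chr5:77086988-77115121 on the minus strand (ENSMUSG00000059325.14). Its 2 clusters of starts differed. The region at the first start (Hopx peak 11, chr5:77114828-77115670) was weak, with list percentiles of 28.0, 31.9 and 15.1 in WT, against 31.2 and 11.8 in cKO 1 and cKO 3, and it was not called in cKO 2. The region at an internal start 20.02 kb into the gene (Hopx peak 4, chr5:77094597-77095962, over a UTR exon) was called in all 6 lists, with list percentiles of 73.9, 75.1 and 81.1 in WT, against 69.2, 80.4 and 65.6 in cKO samples. The internal start thus outranked the first start in every list in which both were called. Its shared percentile averaged 66.0 ± 3.71 for WT and 56.6 ± 13.5 for cKO samples (SD, n = 3 each), with overlap.

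Hopx peak 12 (chr5:77124470-77125673), between genes and 9.78 kb upstream of the first start, was the third region without overlap and had the widest gap. Its shared percentile was 38.0, 42.6 and 44.7 in WT 1, 2 and 3, against 52.7, 60.7 and 54.3 in cKO 1, 2 and 3. The lowest cKO value, 52.7, lay well above the highest WT value, 44.7. The means were 41.7 ± 3.43 and 55.9 ± 4.25 (SD, n = 3 each, difference 14.1, exact permutation p = 0.1), and across all shared regions the difference did not pass (limma adjusted p = 0.718). The list percentile was 49.0, 61.9 and 66.0 in WT, against 71.7, 72.2 and 69.7 in cKO samples, and did not overlap either. The summit pileup of 21, 31 and 42 fragments in WT, against 58, 31 and 50 in cKO samples, did overlap. Of the 3 regions, this one alone kept its separation both by list percentile and by −log10 q.

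The 100 bases on either side of its summit (chr5:77124798-77124998, plus strand) are shown with an ARID3 site, ATCAAA, in capitals, 93 bases before the summit.

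Hopx peak 12: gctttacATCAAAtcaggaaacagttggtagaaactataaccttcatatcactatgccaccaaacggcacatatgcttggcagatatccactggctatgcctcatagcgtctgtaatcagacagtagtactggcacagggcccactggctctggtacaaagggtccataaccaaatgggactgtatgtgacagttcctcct

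The remaining Hopx regions had lower means in cKO samples or were not called throughout. In the introns, Hopx peak 8 had shared percentiles of 55.1, 46.0 and 20.8 in WT, against 21.7, 34.1 and 25.8 in cKO samples, and Hopx peak 9 had 19.4, 4.36 and 23.8 against 4.25, 8.26 and 11.3. Both overlapped between genotypes. The other 9 regions, weak ones with list percentiles of at most 18.4, were called in 1 to 3 lists each.

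Bmi1 encodes a subunit of Polycomb repressive complex 1, and lies at chr2:18677018-18686629 on the plus strand (ENSMUSG00000026739.13). Its own promoter region (Bmi1 peak 2, chr2:18676407-18678272) was called in all lists but ranked low by fold, with list percentiles of 26.8, 31.5 and 38.4 in WT, against 21.4, 50.6 and 5.77 in cKO samples. Its pileup was not low, at 38, 60 and 85 fragments in WT, against 110, 52 and 59 in cKO samples, and its local background was 7.93 to 25.8 fragments. The neighbouring promoter of Commd3, upstream of Bmi1 (Bmi1 peak 1, chr2:18671910-18673078), was the strongest region at the locus, with shared percentiles of 91.1, 84.4 and 84.9 in WT, against 71.4, 85.9 and 72.2 in cKO samples. Neither region separated the genotypes by shared percentile, but by rank of −log10 q Bmi1 peak 1 was lower in every cKO sample. Bmi1 peak 3 and Bmi1 peak 4, past the end of the gene and toward Spag6, were also called in all 6 lists.

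Tert encodes the catalytic subunit of telomerase, and lies at chr13:73626911-73649843 on the plus strand (ENSMUSG00000021611.9). Its promoter region (Tert peak 1, chr13:73626523-73627516) had list percentiles of 79.5, 81.4 and 90.9 in WT, against 86.2, 87.8 and 87.0 in cKO samples, second to Clu among the promoters of the 8 genes by the median over samples. The shared percentile averaged 76.9 ± 6.94 for WT and 79.5 ± 3.45 for cKO samples (SD, n = 3 each), a difference of 2.54 within the spread. Tert peak 2, over a coding exon, and Tert peak 3, 9.37 kb past the gene, were called in all lists but varied widely: Tert peak 3 had shared percentiles of 3.70, 28.9 and 58.7 in WT, against 59.7, 35.4 and 39.9 in cKO samples. WT 1 was the lowest sample at Tert peak 3, and the genotypes overlapped.

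Mex3a encodes an RNA-binding protein, and lies at chr3:88532395-88541396 on the plus strand (ENSMUSG00000074480.4), within 20 kb of Rab25, Lamtor2 and Ubqln4. Its promoter region (Mex3a peak 5, chr3:88531269-88532299) had list percentiles of 78.1, 73.1 and 71.9 in WT, against 65.4, 78.6 and 73.2 in cKO samples. The shared percentile averaged 61.7 ± 10.1 for WT and 57.6 ± 13.02 for cKO samples (SD, n = 3 each). The strongest of its other regions by the lowest value over the lists was Mex3a peak 10, at the promoters of Lamtor2 and Ubqln4, with 65.1, 54.8 and 31.8 in WT, against 33.0, 44.4 and 31.7 in cKO samples. It had the most negative difference of means among the members, −14.2, and overlapped in its ranges. Mex3a peak 7, over a coding exon, was called in all 3 WT samples and in cKO 1 and cKO 3, at list percentiles of 24.3, 31.5 and 32.7 in WT, against 7.32 and 7.57 in those cKO samples.

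Of the 45 merged regions, 22 were called in all 6 lists, against 45.9% of all regions, 11 were called in 1 list and the other 12 in 2 to 5. By the position of the summit of the merged region, 6 lay at a start of a member, 4 at a promoter of another coding gene, 13 in introns and 15 between genes, and the rest over exons, Hopx peak 4 among them, or at starts of noncoding genes. None of the 45 was called in all samples of one genotype and no sample of the other, a pattern shown by 0.464% of all regions for cKO and by 0.111% for WT. Just beyond the limit, 27.5 kb past Clu at Gulo (chr14:66007973-66009559), lay a region called in all 3 cKO samples and in no WT sample, with list percentiles of 51.1, 63.1 and 49.0.

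Of the 22 regions called in all lists, 3 had higher ranks in every cKO than in every WT sample and 0 had lower ones, against 5.86% higher and 6.08% lower over all shared regions. All 3 lay away from coding promoters, where 13 of the 22 were found. Over all shared regions away from coding promoters, 7.08% were higher and 5.27% lower without overlap. By percentile over the whole list 1 region was higher (Hopx peak 12) and 1 lower (Mex3a peak 8). By −log10 q 1 was higher (Hopx peak 12) and 2 were lower (Bmi1 peak 1 and Mex3a peak 8). The direction of the count thus depends on the scale. Without cKO 2, 4 were higher and 7 lower, when 39.6% of all shared regions separated, and without WT 3, 5 were higher and 2 lower, against 25.1%. The differences of the 22 ran from −14.2 to 21.03 percentile points, 8 above 0 and 14 below, with a median of −5.13, against −0.645 over all shared regions, 53.9% of which were lower.

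At the 9 shared regions over coding promoters, the members' own and their neighbours' and counted where the summit of any list fell in a promoter window, the median difference was −6.10, against −2.62 over all such regions. No member passed the test across all regions: limma gave 0.0% of the 32748 shared regions an adjusted p below 0.05, and none of the 22 an unadjusted p below that value. Over all shared regions 2365 had an unadjusted p below 0.05, which is 7.22%, and the smallest adjusted p was 0.567. A lack of calls does not show that ranks were equal.

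**Figure D3:**
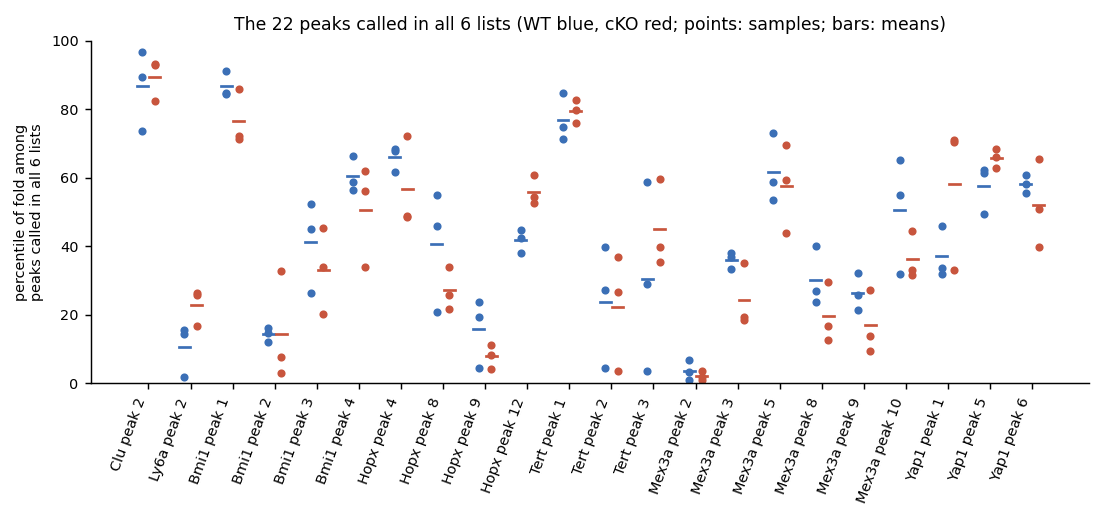
Shared percentile of the 22 regions at the 8 loci called in all 6 lists. Each point is a sample, WT in blue and cKO in red, and each bar is the mean of 3 samples. Ly6a peak 2, Hopx peak 12 and Yap1 peak 5 are the regions whose cKO points all lie above the WT points, while most other regions overlap with a lower cKO mean.

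The letters within 100 bases of the summits were counted for all 45 regions beside all 71286. A TEAD motif, GGAATG, was in 5 of 45 regions against 11.8%, and an AP-1 motif, TGACTCA, in 3 of 45 against 8.17%. An ARID3 motif was in 5 of 45 against 16.0%, HNF4 (CAAAGTCCA or CAAAGTTCA) in 2 of 45 against 2.51%, and TCF in 1 of 45 against 3.51%. The summit sequences shown above all came from regions with a higher mean in cKO samples. Of the 2 regions with an HNF4 site, Hopx peak 8 also had an ARID3 site, and its mean was lower in cKO samples (difference −13.4). Tert peak 3, with a higher mean in cKO samples (difference 14.6), had none of these motifs. These are low counts, and a match does not show binding. Median GC content around the summit was 54.7% at the members and 51.2% over all regions.

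The wider pathways around the members were described by 5 gene lists. In the Hippo and TEAD list, which holds the kinases that restrain YAP and the factors it binds, 12 of 17 genes had a promoter peak in all 6 lists, 4 in some and Lats1 in none. Over all coding promoter peaks in all lists, 3.06% were higher and 7.99% lower in cKO without overlap. In this list 0 were higher and 1 was lower: Stk3, which encodes the kinase MST2, with shared percentiles of 98.8, 99.0 and 98.0 in WT, against 95.6, 96.6 and 97.7 in cKO samples. The promoter region of Lats2, a kinase that phosphorylates YAP, was not in that count, as its summit fell in the promoter window in 5 lists, and was lower in every cKO sample too, with 92.7, 73.2 and 69.9 in WT, against 54.5, 65.5 and 64.8 in cKO samples.

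Of the 18 genes of the fetal-like and YAP target list, 6 had a promoter peak in all lists, among them Ccn2, Areg and Anxa2, 4 in some and 8 in none, against 44.6% of all coding genes in all lists and 38.3% in none. Those with none included Ankrd1, Ereg, Anxa10, Msln, Spp1, Sprr1a and Ly6d. Of those with a promoter peak in all lists, 5 had a shared region that could be compared, and none of these separated the genotypes. The remaining gene could not be compared. The promoter region of Anxa3, whose summit fell in the promoter window in 5 lists, was lower in every cKO sample, with 53.1, 61.0 and 52.8 in WT, against 52.5, 48.3 and 41.1 in cKO samples. Ccn2, a direct target of YAP and TEAD, had shared percentiles of 44.6, 45.2 and 64.4 in WT, against 73.7, 69.0 and 62.6 in cKO samples, which overlapped.

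Of 7 other genes of reserve and label-retaining cells, 3 had a promoter peak in all lists, and Dll1, a Notch ligand, was lower in every cKO sample, with 41.0, 21.9 and 32.2 in WT, against 11.4, 21.7 and 14.7 in cKO samples. Of 15 partners of Bmi1 in Polycomb repressive complex 1, 12 had a promoter peak in all lists and Phc3 had none. The promoter peaks of Cbx7, a chromodomain subunit, and Phc2, a Polyhomeotic subunit, were lower in every cKO sample, by means of −14.4 and −10.9. Of 10 telomerase and shelterin genes, 7 had a promoter peak in all lists. Those of Wrap53, which brings telomerase to Cajal bodies, and Pot1a, which binds the single-stranded telomere end, were lower in every cKO sample, by −19.8 and −0.837. None of these genes passed limma across all shared regions. Among genes with a promoter peak in all lists, 12, 5, 3, 12 and 7 regions were compared in the 5 gene lists, in the order given. All 6 that separated were lower in cKO samples. Promoter peaks of coding genes also separated more often in that direction, 7.99% lower against 3.06% higher.

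**Figure D4:**
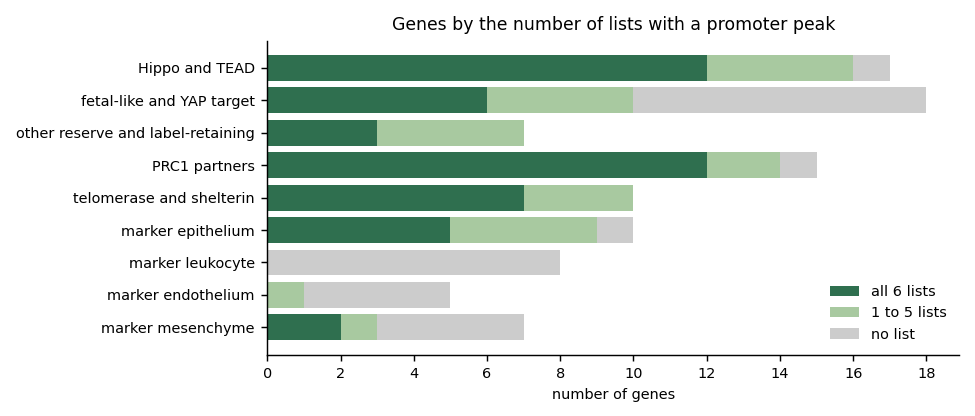
Number of genes in each of 5 pathway and 4 cell type marker lists with a promoter peak in all 6 lists, in 1 to 5 lists or in none. The Polycomb and Hippo lists were open at 12 of 15 and 12 of 17 genes in all samples, the fetal-like and YAP target list at 6 of 18, and the leukocyte list at none.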

How the data were processed

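Chromatin accessibility was profiled by the authors in 3 crypt samples from WT and 3 from cKO mice. Per the study's methods and the labels, reads were trimmed with Trim Galore and aligned to GRCm38 with BWA in an nf-core pipeline, blacklisted regions were removed and peaks were called per sample with MACS2, with no input control named. The deposited fold is a ratio of summit pileup to local background. The deposited −log10 p and −log10 q values come from the Poisson model of the caller, and the deposited score is derived from the −log10 q. Lists began at a −log10 q of 1.30 to 1.31. Their depth is known only as the coverage the columns imply.

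Only chromosomes 1 to 19, X and Y were used, which left out 61 to 92 peaks per list on other sequences. Comparison of the lists in 15 pairs found 0 identical ones. The summit pileup was recovered as the whole number that satisfies the fold and p columns, which was found for 100% of 2000 peaks sampled per list. Lists were merged at an overlap of at least 1 base, and the peak of highest fold stood for a list. Ranks of fold among shared regions were turned into normal scores and fitted with limma 3.58.1 (R 4.3.3, lmFit and eBayes with trend, genotype only), with Benjamini-Hochberg adjustment over 32748 regions and a threshold of 0.05. The fit was tested on simulated data: shifts of modest size were mostly missed, none being found in a first run, and the larger shifts added after that run were mostly found. Even the modest shifts were larger than the difference in normal scores at any member region, at most 0.643 (Ly6a peak 2). The simulation thus does not show that differences of the size seen at the members could be found. Single values were compared by exact two-sided permutation tests. The labels do not say whether the 3 samples of a genotype came from 3 separate mice. The p-values treat them as separate samples and set the difference of genotypes against the variation among them.

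Genes were those of GENCODE M21. Sequences were read from GRCm38.p6, and coordinates are 1-based. Other work used Python 3.11.15, numpy 2.4.6, pandas 2.3.3, scipy 1.17.1 and matplotlib 3.10.9. The members and the gene lists were chosen with earlier results of these data known. The text names, at each member, the promoter region, the strongest other region called in all lists and every region whose values did not overlap, and from the other lists the genes whose promoter region separated or that had no promoter peak. A gene of these lists is counted but not reported here by name. Hopx peaks 8 and 9, Tert peak 3, Yap1 peak 1, Mex3a peaks 7 and 8 and the region at Gulo were named after their values were seen. So were Ccn2, Areg and Anxa2. Alternatives were other windows, thresholds, list lengths, overlap rules and ranks, a replicate block and leaving out each sample.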

Additional observations from a re-analysis of the deposited data

How the results depend on the processing

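Of 206 values recomputed for 19 results, 169 were labelled as kept, 33 as moved and 4 as reversed. A count was kept if it changed by no more than a fixed factor, and a difference in peak number unless its sign changed. A rank difference was kept if it changed by less than the spread between replicates. Clu, Ly6a, Anxa1 and Tert had a main difference in number of 0, so their values could only be labelled as kept. The number kept is therefore no measure of stability. The number of regions without overlap, 3 higher and 0 lower in cKO samples, was 1 higher for gene bodies alone and for fixed short windows around summits, 1 higher and 1 lower by percentile over the whole list, and 1 higher and 2 lower by −log10 q. A window of 50 kb added 1 lower region. Leaving out 1 sample gave 4 to 11 in all (3 to 5 higher, 1 to 7 lower). It gave 7 without WT 3 and 11 without cKO 2, but 25.1% and 39.6% of all shared regions then separated, against 11.9% with all samples. Hopx peak 12 separated under each of these settings in which it was compared. It lies outside the gene body, and with the short windows the region at its summit was not shared by all lists. Regions called in one genotype only numbered 1 with 50 kb (Gulo) and 1 with lists of equal length (Mex3a peak 7, WT). Loci with numbers of peaks that did not overlap went from 1 to 0 for gene bodies, 50 kb, −log10 q of at least 5 and equal lengths, and to 2 without WT 2 or without cKO 1, a range of 0 to 2. The difference in number reversed at Bmi1 with equal lengths (−0.667) and at Mex3a for gene bodies (−0.333), without WT 1 (−0.500) and without cKO 1 (−0.167). The causes were not tested beyond the change in regions or samples each setting makes.

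Same-numbered samples did not deviate together (correlations of −0.295, −0.0126 and 0.140), so the numbers were not taken as pairs. With the replicate block, limma called 2 regions, none of them at a member, and 5 member regions differed in 1 direction within all 3 numbers, 3 higher and 2 lower, against 13.2% higher and 15.1% lower over all shared regions. Regions at Ly6a and Tert rest on as few as 12 to 14 fragments in a sample, and the effect of depth on their calls was not tested.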
